A study of Mus musculus with 16 samples.

Results

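The clustered protocadherin genes were taken as all genes of the deposited count table whose name starts with Pcdha, Pcdhb or Pcdhg. They were 58 of 55335 genes: 14 of the alpha cluster, 22 of the beta cluster and 22 of the gamma cluster. The 56 with a mean of 10 or more counts over the 16 mice are described here, 12 alpha, 22 beta and 22 gamma genes. Pcdha4, with a mean of 3.13 counts, and Pcdha8, with a mean of 7 counts, fell below that mean and were not tested. The same 56 genes passed the filter on low counts.

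The study asked how inhibition of stearoyl-CoA desaturase (SCD), which makes monounsaturated fatty acids, changes the hippocampus of a mouse model of Alzheimer's disease. Whole-hippocampus RNA of 16 mice was sequenced, 4 in each of 4 groups, all dissected at 10 months after a 28-day infusion into the lateral ventricles. WT-D and WT-S mice are labelled C57BL/6J x 129S1, and 3xTg-D and 3xTg-S mice B6;129-Psen1tm1MpmTg(APPSwe,tauP301L)1Lfa/Mmjax. D groups received vehicle (0.8% DMSO) and S groups the inhibitor labelled SCDi Cayman 10566, at 80 µM in the same vehicle, so all 16 mice carried a brain cannula and pump. The treatment labels were followed for the identity of the inhibitor, although a protocol text common to the samples names another catalogue item, ab142089. Per the study's methods, all mice were female. The 3xTg line carries human mutant APP and tau transgenes under the neuron-specific Thy1.2 element and a mutant presenilin 1 knock-in, and the WT mice came from the purchased hybrid stock B6129SF2/J. The transgenes, the knock-in and any other allele that differs between these lines cannot be told apart in a comparison of 3xTg with WT.

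Clustered protocadherins are cell-surface adhesion molecules of neurons that bind identical molecules on facing membranes. Each neuron switches on a small and largely random subset of the promoters, through DNA looping by CTCF and cohesin to distant enhancers, and the resulting surface code lets branches of one neuron recognise and avoid each other. Alpha and gamma genes each have 1 variable exon, with its own promoter, that is spliced to constant exons common to the cluster, whereas beta genes are single-exon genes. The C-type members at the 3′ ends of the alpha and gamma clusters are an exception to the random choice and are transcribed in many neurons at once. In a whole hippocampus, a level is a sum over cells, so that fewer cells using a promoter and less RNA per cell cannot be told apart.

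The clusters lie side by side on the plus strand of chromosome 18 (GRCm38): alpha from 36930184 to 37187661, beta from 37264938 to 37524479 and gamma from 37661793 to 37841873. A read inside a constant exon belongs to every gene of its cluster and could not be assigned to 1 gene. In the Gencode M21 annotation, the 12 described alpha genes shared 2860 to 3198 exon bases with other genes of the same strand and the gamma genes 2116 to 3157, and the exon sequence of a described gene's own ranged from 2139 to 4606 bases in alpha, 2588 to 8695 in beta and 1570 to 4614 in gamma. The values below therefore measure mainly the variable exons. Levels are given as counts per 1000000 reads (CPM) and, for comparisons between genes, as CPM per kilobase of exon sequence that no other gene of the same strand holds. The strand setting of the counting was not stated. Every base of Pcdhga10 outside the constant exons lies under an exon of the antisense gene Gm26672, and the gene still had 112 to 179 counts per mouse, so that sequence under antisense exons was kept in these lengths. Members of a cluster also resemble each other: 6.34% of the 75-base windows of the own exon sequence of Pcdhgb6, 3.62% of Pcdhb9 and 0% of Pcdhga4 occurred without mismatch in another gene. For Pcdhga11 only the 1256 bases outside antisense exons were searched, with 0% of windows found elsewhere.

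In level per kilobase, the C-type members stood highest in both clusters that have them. Over all 16 mice, Pcdhgc3, which binds Axin1 and promotes dendrite branching, had 17.8 CPM per kilobase, and Pcdhgc5 had 14.3. Pcdhac2, which guides the spacing of serotonergic axons, had 9.95. The other C-type members were far lower, with 1.15 for Pcdhac1 and 2.23 for Pcdhgc4, the isoform on which survival of many interneurons depends. The medians were 1.08 CPM per kilobase over the alpha, 1.89 over the beta and 2.75 over the gamma cluster.

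Pcdhac2 alone held 49.0% of the summed CPM of the alpha cluster, followed by Pcdha12 with 11.6%. Pcdhgc5 and Pcdhgc3 together held 42.5% of the gamma cluster. The beta cluster was more even, and its most abundant member, Pcdhb9, held 10.4%. After Pcdhb9, at 6.90 CPM per kilobase, came Pcdhb7 with 3.97 and Pcdhb3 with 3.35. In the gamma cluster Pcdhga6 followed Pcdhgc3 and Pcdhgc5, with 5.55. In the alpha cluster Pcdha12, with 2.89, and the Pcdha11 gene that starts at 37005203, with 1.33, followed Pcdhac2. The lowest members were Pcdha1 with 0.286, Pcdhb1 with 0.327 and Pcdhgb4 with 1.25 CPM per kilobase.

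**Figure D1:**
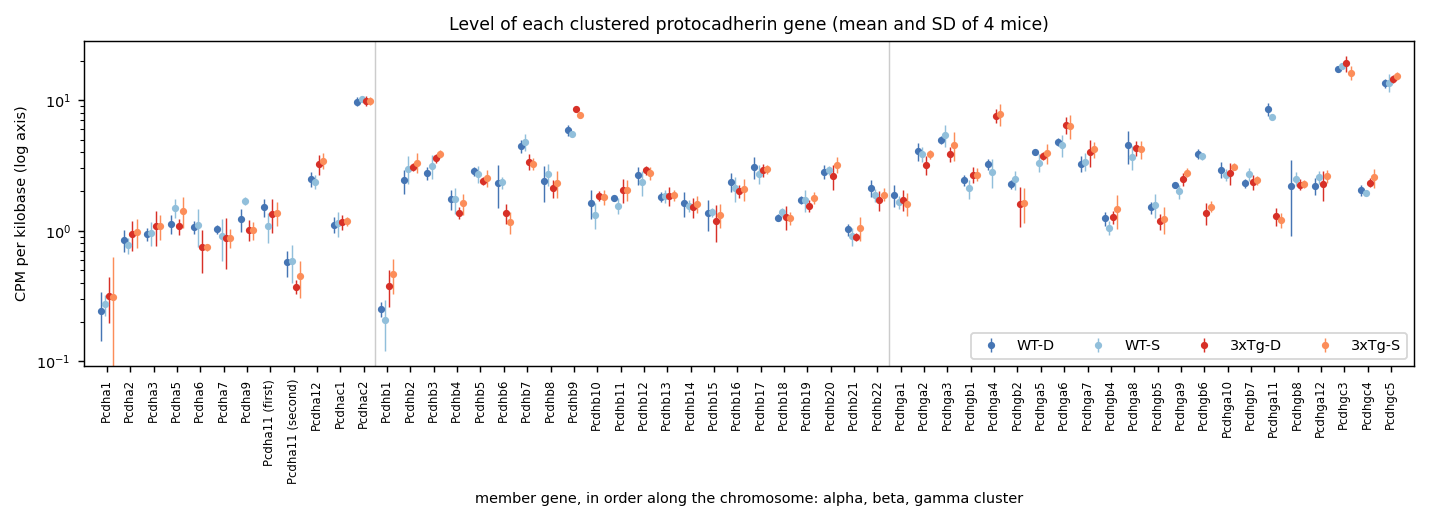
Level of the 56 described genes, in chromosome order, in CPM per kilobase of own exon sequence on a log axis. Points are means and bars SDs of 4 mice, coloured by group, and the lower bar of Pcdha1 in 3xTg-S runs off the axis. Pcdhac2, Pcdhgc3 and Pcdhgc5 stand above the rest in every group, and Pcdhga4, Pcdhgb6 and Pcdhga11 show WT and 3xTg groups apart.

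Summed over a cluster, the genotypes had close levels. The gamma cluster summed to 300.3 ± 10.8 CPM for WT-D, 292 ± 6.55 for 3xTg-D, 297.3 ± 25.1 for WT-S and 295.9 ± 15.9 for 3xTg-S mice (SD, n = 4 each). The beta cluster summed to 203.6 ± 10.5, 199.3 ± 11.3, 199.6 ± 22.3 and 206.2 ± 12.8 CPM in the same order. The alpha cluster summed to 60.5 ± 1.96, 60.6 ± 6.69, 62.3 ± 2.44 and 62.4 ± 5.96 CPM. In all 3 clusters the groups' ranges overlapped. Within the gamma cluster, the 7 B-type genes summed to 45.6 ± 3.12 CPM in WT-D and 36.8 ± 3.44 in 3xTg-D, with ranges of 41.7 to 49.2 and 32.6 to 40.3 that did not meet. They summed to 46.3 ± 4.48 CPM in WT-S mice and 38.4 ± 1.86 in 3xTg-S, with ranges of 40.7 to 51.5 and 36.3 to 40.1. Under vehicle the 3 C-type gamma genes summed to 122 to 135 CPM in WT-D and 137 to 146 in 3xTg-D mice, and under the inhibitor their sums overlapped. The 12 A-type genes, Pcdhga11 among them, summed under vehicle to 127 ± 6.41 CPM for WT and 115 ± 7.55 for 3xTg mice. Under the inhibitor they summed to 119 ± 9.05 and 123 ± 6.81. Pcdhgb6, described below, is one of the 7 B-type genes and made up most of their gap. Its mean was 9.98 CPM for WT and 3.51 for 3xTg mice under vehicle, then 9.51 and 3.93 under the inhibitor. The B-type gap is therefore no evidence of a shift of the whole type. All these sums are descriptions without a test.

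The first question of the design was how the 3xTg hippocampus differs from WT under vehicle. Single gamma and beta genes differed, in both directions. In 3xTg-D vs WT-D, 8 of the 56 members had a p of 0.01 or less by edgeR's quasi-likelihood test, 4 higher and 4 lower in 3xTg-D, beside 4.91% of all 16475 genes tested. With Benjamini-Hochberg adjustment over all genes, 4 members passed 0.05, 2 higher and 2 lower, beside 1.85% of all genes. By cluster, the 8 members were 0 of the 12 alpha, 3 of the 22 beta and 5 of the 22 gamma genes, and 18 members in all (32.1%) had a p under 0.05, beside 12.6% of all genes. The median SE of the log2 fold change was 0.21 over the alpha, 0.14 over the beta and 0.13 over the gamma genes. A difference of 1 size was thus harder to call in alpha, and 0 of 12 genes is near the share of all genes. The CPM of the groups did not overlap in 9 members, beside 8.17% of all genes. The count of 8 fell to 4 without mouse WT-D4 and to 5 without 3xTg-D4, and the 4 members past the adjusted threshold were Pcdhga11, Pcdhgb6, Pcdhga4 and Pcdhb9.

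Under the inhibitor the genotypes were compared in other mice. In 3xTg-S vs WT-S, 10 of the 56 members had a p of 0.01 or less, 5 in each direction, beside 4.26% of all genes, and 6 passed an adjusted p of 0.05, beside 1.40%. They were 2 alpha, 4 beta and 4 gamma genes. The CPM of the groups did not overlap in 10 members, beside 6.75% of all genes. Both comparisons share no mouse. Of the 13 members with a p of 0.01 or less in either, 13 had a fold change of the same sign in both, beside 90.1% of the 1192 genes chosen in that way from all genes. The p was 0.01 or less in both for 5 members (8.93%), beside 1.94% of all genes: Pcdhga11, Pcdhgb6, Pcdhga4, Pcdhb9 and Pcdhb7. Over all 56 members the sign was the same in 41 (73.2%), beside 52.6% of all genes tested. Across the 56 genes, which are not independent, the log2 fold changes of both comparisons had a Pearson r of 0.93 and a Spearman rho of 0.80, against 0.72 and 0.17 over all genes.

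**Figure D2:**
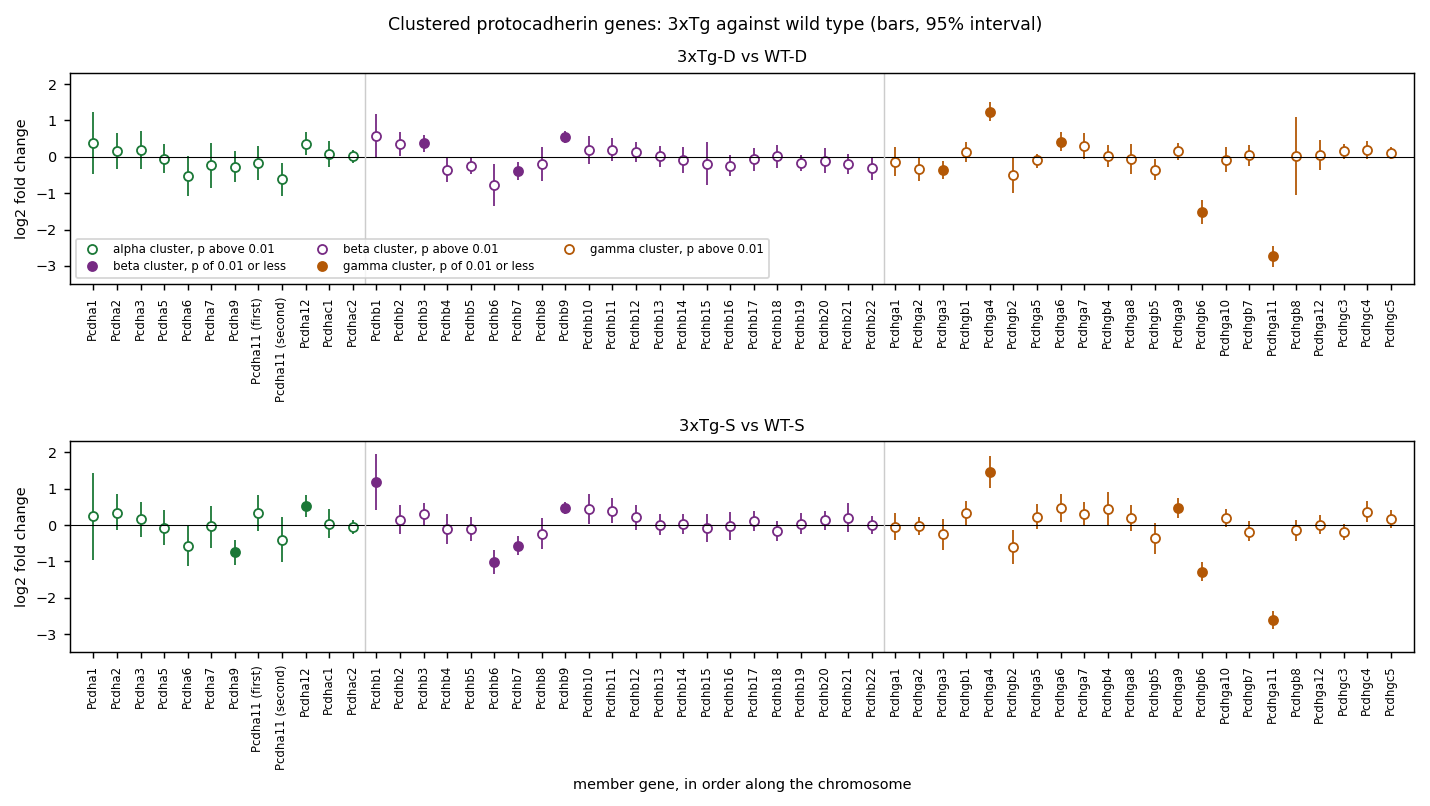
Log2 fold change of each described gene, in chromosome order, in 3xTg-D vs WT-D (top) and 3xTg-S vs WT-S (bottom), 4 mice a group. Bars are 95% intervals and filled points have a p of 0.01 or less. Pcdhga11 and Pcdhgb6 lie lowest and Pcdhga4 highest in both panels, while most members lie near 0.

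Pcdhga11 showed the widest gap of all members. It encodes an A-type gamma isoform and spans 37755731 to 37841873, its variable exon lying at the 5′ end. Its CPM was 23.8, 19.4, 22.1 and 25.5 in the WT-D mice and 3.85, 3.82, 2.87 and 3.05 in the 3xTg-D mice. In the WT-S mice it was 18.3, 19.5, 19.7 and 20.7, and 3xTg-S mice had 2.81, 2.96, 3.79 and 3.24. Every WT mouse was thus far above every 3xTg mouse. Under vehicle the gene was 6.65-fold lower in the 3xTg line (log2 fold change −2.73 ± 0.13 (SE), edgeR adjusted p = 2.17e-06) and under the inhibitor 6.16-fold lower (−2.62 ± 0.11, adjusted p = 7.8e-07). It made up 7.55% ± 0.73 of the gamma cluster's CPM in WT-D and 1.17% ± 0.19 in 3xTg-D mice (SD, n = 4 each).

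Pcdhgb6, a B-type isoform spanning 37742094 to 37841873, was lower in 3xTg mice as well. Its CPM was 9.25, 10.3, 9.31 and 11.03 in WT-D and 3.63, 2.52, 3.87 and 4.03 in 3xTg-D mice. It was 9.95, 9.02, 8.98 and 10.1 in WT-S mice and 3.47, 4.10, 4.37 and 3.78 in 3xTg-S mice. The genotypes did not overlap. The gene was 2.85-fold lower under vehicle (log2 fold change −1.51 ± 0.15, edgeR adjusted p = 0.00046) and 2.44-fold lower under the inhibitor (−1.29 ± 0.12, adjusted p = 0.000202).

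Pcdhga4, an A-type isoform spanning 37685210 to 37841873, went the other way. Its CPM was 4.65, 5.57, 5.36 and 4.65 in WT-D and 13.5, 11.4, 12.8 and 10.2 in 3xTg-D mice. It was 3.29, 5.29, 3.67 and 5.54 in WT-S mice and 9.61, 11.9, 12.1 and 15.4 in 3xTg-S mice. The lowest 3xTg mouse lay above the highest WT mouse. The gene was 2.37-fold higher under vehicle (log2 fold change 1.24 ± 0.12, edgeR adjusted p = 0.000372) and 2.75-fold higher under the inhibitor (1.46 ± 0.20, adjusted p = 0.00415). Only 1570 of its exon bases belong to it alone, the shortest stretch among the gamma genes.

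These 3 genes were not neighbours of like behaviour along the cluster. Pcdhga10 and Pcdhgb7 lie between Pcdhgb6 and Pcdhga11 and had no p of 0.01 or less. Pcdhga10 had 7.66 ± 1.1 CPM in WT-D and 7.25 ± 1.4 in 3xTg-D mice (SD, n = 4 each), a log2 difference with a 95% interval of −0.42 to 0.26. Pcdhgb7 had 6.01 ± 0.51 and 6.17 ± 0.83 CPM, an interval of −0.24 to 0.32. Gm26672, the antisense gene under Pcdhga10 and parts of Pcdhgb7, Pcdhga11 and Pcdhga12, had 1.82 ± 0.501 CPM in WT-D and 0.864 ± 0.114 in 3xTg-D mice, a log2 fold change of −1.07 ± 0.24 with an edgeR adjusted p of 0.0569. If counting ignored strand, reads over exons of both genes could not be assigned to 1 gene. Pcdhga10, whose own exon sequence lies fully under Gm26672 in Gencode M21, still had 112 to 179 counts per mouse.

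Other gamma genes changed less and not with every set of mice. Pcdhga3 had 14.4, 12.5, 12.2 and 12.8 CPM in WT-D and 11.4, 8.60, 10.9 and 9.43 in 3xTg-D mice, a log2 fold change of −0.36 ± 0.11. Pcdhga6 had 13.5, 13.1, 11.6 and 12.3 CPM in WT-D and 17.2, 18, 13.3 and 18.9 in 3xTg-D mice, a log2 fold change of 0.42 ± 0.11. Pcdhga9 had 6.996, 8.08, 6.05 and 6.73 CPM in WT-S mice and 10.1, 9.49, 10.4 and 8.69 in 3xTg-S mice, a log2 fold change of 0.46 ± 0.12. The groups overlapped for Pcdhga6 but not for the other 2 genes. Their edgeR adjusted p-values were 0.167, 0.111 and 0.126. The unadjusted p rose above 0.01 for Pcdhga3 without WT-D1, WT-D2, WT-D4, 3xTg-D2 or 3xTg-D4, for Pcdhga6 without WT-D3, WT-D4, 3xTg-D1 or 3xTg-D4, and for Pcdhga9 without WT-S3, 3xTg-S1 or 3xTg-S3.

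In the beta cluster, Pcdhb9 was higher in 3xTg mice. This gene spans 37400855 to 37403909, and its CPM was 17.6, 17.2, 20.8 and 16.5 in WT-D and 26.2, 25.8, 25.3 and 27.4 in 3xTg-D mice. It was 17.2, 17.1, 15.9 and 16.6 in WT-S mice and 24.0, 23.9, 24.0 and 21.8 in 3xTg-S mice. No WT mouse reached a 3xTg mouse. The gene was 1.45-fold higher under vehicle (log2 fold change 0.54 ± 0.08, edgeR adjusted p = 0.00465) and 1.39-fold higher under the inhibitor (0.47 ± 0.08, adjusted p = 0.0125).

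Pcdhb6 and Pcdhb7, adjacent genes starting at 37333921 and 37341702, were lower in 3xTg mice. Pcdhb6 had 8.41, 11.4, 4.45 and 10.8 CPM in WT-D and 5.71, 5.62, 5.25 and 3.87 in 3xTg-D mice. It had 8.08, 8.34, 8.71 and 10.2 CPM in WT-S mice and 4.18, 5.58, 4.05 and 3.73 in 3xTg-S mice. One WT-D mouse, WT-D3, lay inside the 3xTg range, and the other 7 WT mice lay above it. Under the inhibitor the gene was 2.02-fold lower (log2 fold change −1.01 ± 0.15, edgeR adjusted p = 0.00738). Under vehicle the log2 fold change was −0.77 ± 0.26 with an unadjusted edgeR p of 0.0137, and without WT-D3 it was −0.99 ± 0.17 with an adjusted p of 0.0198. Pcdhb7 had 15.6 ± 1.8 CPM in WT-D and 11.9 ± 1.6 in 3xTg-D mice, which overlapped, and 16.7 ± 2.4 in WT-S mice and 11.4 ± 1.2 in 3xTg-S mice, which did not (SD, n = 4 each). Its log2 fold changes were −0.39 ± 0.12 and −0.57 ± 0.12, with edgeR adjusted p-values of 0.176 and 0.0534. The vehicle comparison lost its p of 0.01 without WT-D1, WT-D2, WT-D4, 3xTg-D1, 3xTg-D2 or 3xTg-D4.

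Pcdhb3 and Pcdhb1 were the other beta genes with a p of 0.01 or less. Pcdhb3 had 10.9, 11.6, 8.76 and 10.8 CPM in WT-D and 12.6, 12.6, 14.9 and 14.1 in 3xTg-D mice, without overlap (log2 fold change 0.37 ± 0.11, edgeR adjusted p = 0.154). Its p rose above 0.01 without WT-D3, WT-D4, 3xTg-D3 or 3xTg-D4. Pcdhb1, the weakest beta gene, had 0.563, 0.259, 0.504 and 0.814 CPM in WT-S mice and 0.785, 1.67, 1.16 and 1.24 in 3xTg-S mice. The groups overlapped by 1 mouse each (log2 fold change 1.18 ± 0.35, edgeR adjusted p = 0.191), the counts per mouse were 5 to 35, and the p rose above 0.01 without WT-S1, WT-S2, WT-S3, 3xTg-S2, 3xTg-S3 or 3xTg-S4.

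In the comparisons of genotypes under 1 treatment, the alpha cluster held 2 genes with a p of 0.01 or less, both under the inhibitor. Pcdha9 had 4.37, 3.99, 4.54 and 3.96 CPM in WT-S mice and 2.16, 3.05, 2.31 and 2.54 in 3xTg-S mice, without overlap. It was 1.68-fold lower in 3xTg-S (log2 fold change −0.75 ± 0.16, edgeR adjusted p = 0.0458). Under vehicle it had 3.05 ± 0.61 CPM in WT-D and 2.53 ± 0.46 in 3xTg-D mice, which overlapped. Pcdha12 had 5.54, 5.49, 6.97 and 5.54 CPM in WT-S mice and 6.80, 9.59, 8.99 and 8.69 in 3xTg-S mice (log2 fold change 0.52 ± 0.14, edgeR adjusted p = 0.137). Its groups overlapped by 1 mouse each, and its p rose above 0.01 without WT-S1, WT-S2, WT-S4, 3xTg-S2 or 3xTg-S3.

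None of the 5 C-type members had a p of 0.01 or less in any comparison of the main fits. With the replicate number as a block, Pcdhgc3 had such a p in 3xTg-S vs 3xTg-D and in the interaction. Without mouse 3xTg-S2 it also had one in the interaction. Pcdhac2 had 29.6 ± 2.3 CPM for WT-D, 30.1 ± 2.8 for 3xTg-D, 30.8 ± 1.6 for WT-S and 30.0 ± 2.3 for 3xTg-S mice (SD, n = 4 each), and the 95% interval of its log2 difference between 3xTg-D and WT-D was −0.16 to 0.20. Pcdhgc3 had 58.3 ± 2.5, 64.8 ± 9.6, 62.1 ± 3.5 and 55.0 ± 6.8 CPM in the same order, with an interval of −0.05 to 0.36. Pcdhgc5 had 62.3 ± 5.2, 67.0 ± 5.0, 62.8 ± 9.9 and 71.0 ± 5.1 CPM, with an interval of −0.06 to 0.27. Pcdhgc4 had 7.12 ± 0.74, 8.13 ± 0.67, 6.81 ± 0.27 and 8.90 ± 1.5 CPM, with an interval of −0.06 to 0.44. For Pcdhac1 the interval was −0.28 to 0.43. Under the inhibitor the corresponding interval of Pcdhgc4 was 0.08 to 0.66 (edgeR adjusted p = 0.307), and those of the other 4 included 0.

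**Figure D3:**
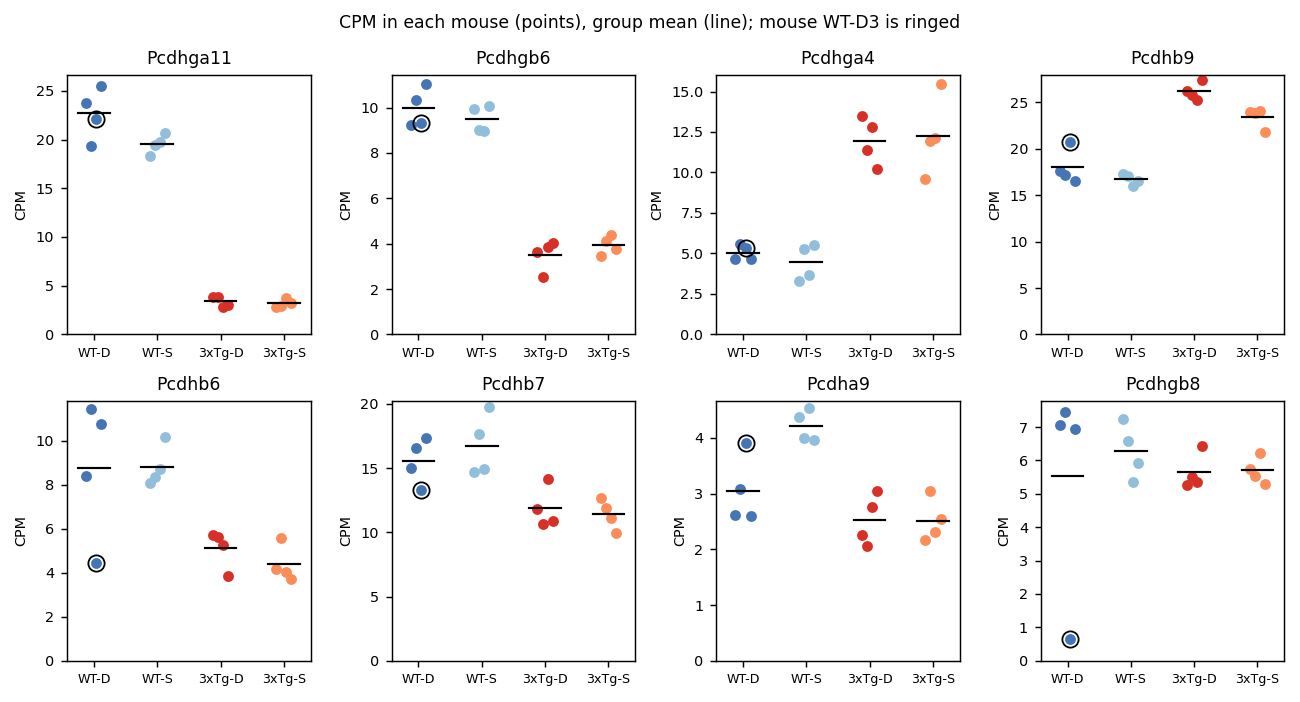
CPM of 8 genes in each of the 16 mice (points), with group means (lines), each vertical axis starting at 0 and mouse WT-D3 ringed. The genotypes separate fully for Pcdhga11, Pcdhgb6, Pcdhga4 and Pcdhb9, and WT-D3 falls to the 3xTg range for Pcdhb6 and to 0.651 CPM for Pcdhgb8.

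The comparison of 3xTg-S with WT-D differs in genotype and in treatment, and it shares its WT-D mice with the vehicle comparison and its 3xTg-S mice with the inhibitor comparison, so only its own values are given. There 9 of the 56 members had a p of 0.01 or less, 4 higher and 5 lower, beside 5.69% of all genes, and 3 passed an adjusted p of 0.05, beside 1.58%. The 3 were Pcdhga11 (log2 fold change −2.85 ± 0.13), Pcdhgb6 (−1.36 ± 0.12) and Pcdhga4 (1.26 ± 0.15). The others were Pcdhb6 (−1.01 ± 0.27), Pcdhb1 (0.89 ± 0.27), Pcdha6 (−0.53 ± 0.16), Pcdhb3 (0.47 ± 0.11), Pcdhb7 (−0.46 ± 0.11) and Pcdhb9 (0.36 ± 0.08). Pcdha6, which had 2.32, 2.31, 2.85 and 2.298 CPM in WT-D and 1.70, 1.57, 1.73 and 1.84 in 3xTg-S mice without overlap, had a p above 0.01 when any 1 of the 8 mice was left out. Pcdhb1 kept it only without 3xTg-S1, and Pcdhb6 only without WT-D1, WT-D3 or 3xTg-S2.

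Among WT mice, WT-D3 lay outside the range of the other 7 in the most members, 21, closely followed by WT-S2 with 20 and WT-S4 with 18. The members of WT-D3 were looked at after their values were seen. Pcdhgb8, a B-type isoform spanning 37761801 to 37841870, had 0.651 CPM in WT-D3, from 13 reads, and 7.05, 7.44 and 6.95 CPM in the other WT-D mice. It had 5.36 to 7.23 CPM in WT-S mice and 5.28 to 6.43 CPM over the 8 3xTg mice, so WT-D3 was at 9.79% of the mean of the other 7 WT mice and below every mouse of either genotype. The table files this gene as protein coding and as a polymorphic pseudogene. In the genes beside it, Pcdhga11 had 22.1 CPM in WT-D3, inside the range of the other WT mice, and Pcdhga12 had 8.36, below their 9.12 to 13.2.

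Of the 56 members, WT-D3 lay below the range of the other 7 WT mice in 11 and above it in 10, which is 37.5% of members, beside 16.4% of all genes tested. For the other 15 mice, set against the other 7 of their own genotype, that share of members was 10.7% to 46.4%, and the share of all genes 11.9% to 40.6%. The highest share of members was that of 3xTg-D2, which was also outside in 40.6% of all genes. A share above that of all genes was not particular to WT-D3. WT-D2 had 26.8% beside 11.9% and 3xTg-D4 26.8% beside 13.3%, whereas WT-D1 had 10.7% beside 20.8%. In the beta cluster the departures of WT-D3 lay in runs: of the genes from Pcdhb2 to Pcdhb8, Pcdhb2, Pcdhb3, Pcdhb6, Pcdhb7 and Pcdhb8 were below the range, at 47.3% to 80.1% of the mean of the other WT mice. From Pcdhb9 to Pcdhb20, 7 genes were above the range, at 115% to 149%, and none was below it. No genotype of single mice was analysed here, and the reason for these values was not tested. Without WT-D3, the count in 3xTg-D vs WT-D was 7 members with a p of 0.01 or less.

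**Figure D4:**
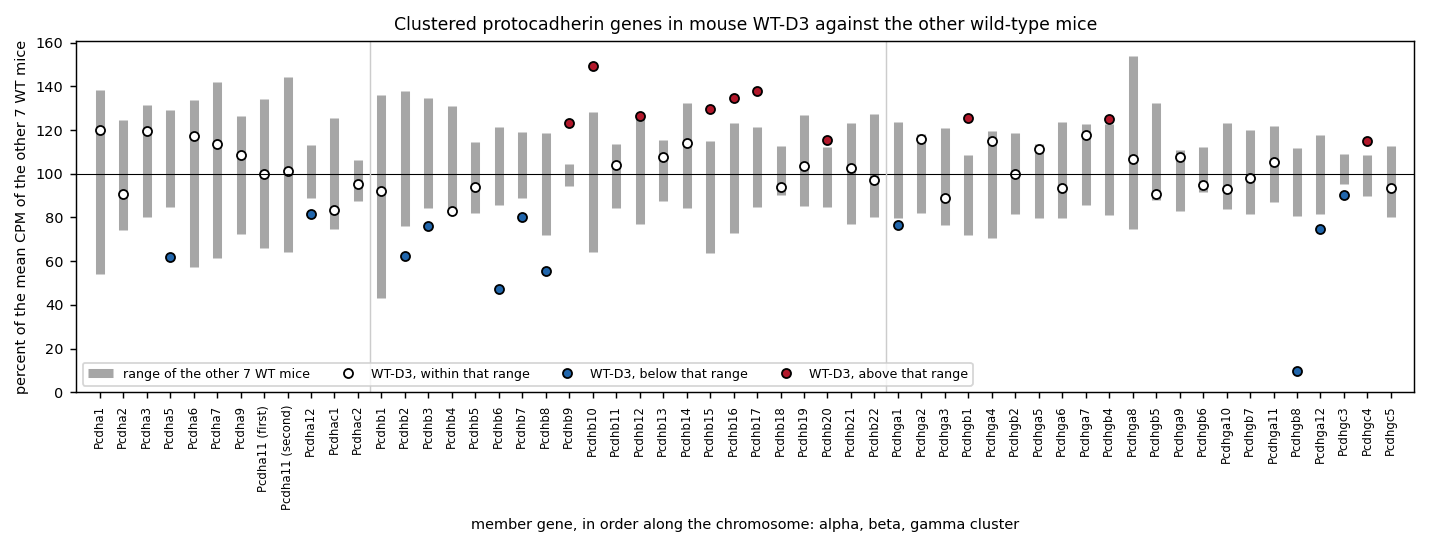
CPM of each described gene in mouse WT-D3 as a percentage of the mean of the other 7 WT mice (points), with the range of those 7 mice (grey bars), in chromosome order. Filled points lie outside the range: 11 below, among them Pcdhgb8 at 9.79%, and 10 above.

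The second question was whether the inhibitor changes these genes. In 3xTg-S vs 3xTg-D, edgeR gave 0 of the 56 members a p of 0.01 or less, beside 0.904% of all genes, and 0 an adjusted p of 0.05 or less, beside 0% of all genes. One member (1.79%) had a p under 0.05, beside 6.33% of all genes, and DESeq2 also gave 0 members a p of 0.01 or less. That member was Pcdhb9, with 26.2 ± 0.91 CPM in 3xTg-D and 23.4 ± 1.1 in 3xTg-S mice (SD, n = 4 each), a log2 difference of −0.16 ± 0.07. The ranges of Pcdhb9 did not overlap, and its edgeR adjusted p was 0.722. The log2 differences of the 56 members lay between −0.24 for Pcdhgc3 and 0.39 for Pcdha5, with a median of 0.06 beside 0.01 for all genes.

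For 35 of the 56 members the 95% interval of that log2 difference lay inside −0.5 to 0.5, that is within a 1.41-fold change, and for 55 inside −1 to 1. The genes that differed by genotype had intervals of −0.46 to 0.28 for Pcdhga11, −0.22 to 0.55 for Pcdhgb6 and −0.28 to 0.36 for Pcdhga4. The 3xTg-S mice thus stayed apart from WT-S mice in these 3 genes, as the values per mouse above show.

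In WT-S vs WT-D, edgeR gave 0 members a p of 0.01 or less, beside 0.188% of all genes, and 0 an adjusted p of 0.05 or less, beside 0% of all genes. At a p under 0.05 there were 5 members (8.93%), beside 2.25% of all genes, and DESeq2 gave 0 at 0.01. The smallest p was that of Pcdha9, which had 2.62, 3.07, 3.90 and 2.60 CPM in WT-D and 4.37, 3.99, 4.54 and 3.96 in WT-S mice. Every WT-S mouse was higher than every WT-D mouse, with a log2 difference of 0.47 ± 0.16 and an edgeR adjusted p of 1. The other 4 were Pcdha5, the Pcdha11 gene that starts at 37005203, Pcdhga5 and Pcdhga11, the last with a log2 difference of −0.22 ± 0.09. The 95% interval lay inside −0.5 to 0.5 for 29 members and inside −1 to 1 for 54. Leaving out WT-D2 or WT-D3 brought 1 member past a p of 0.01 (Pcdhga11 and Pcdha9), and leaving out WT-S4 brought 2, Pcdhga5 and the same Pcdha11 gene.

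**Figure D5:**
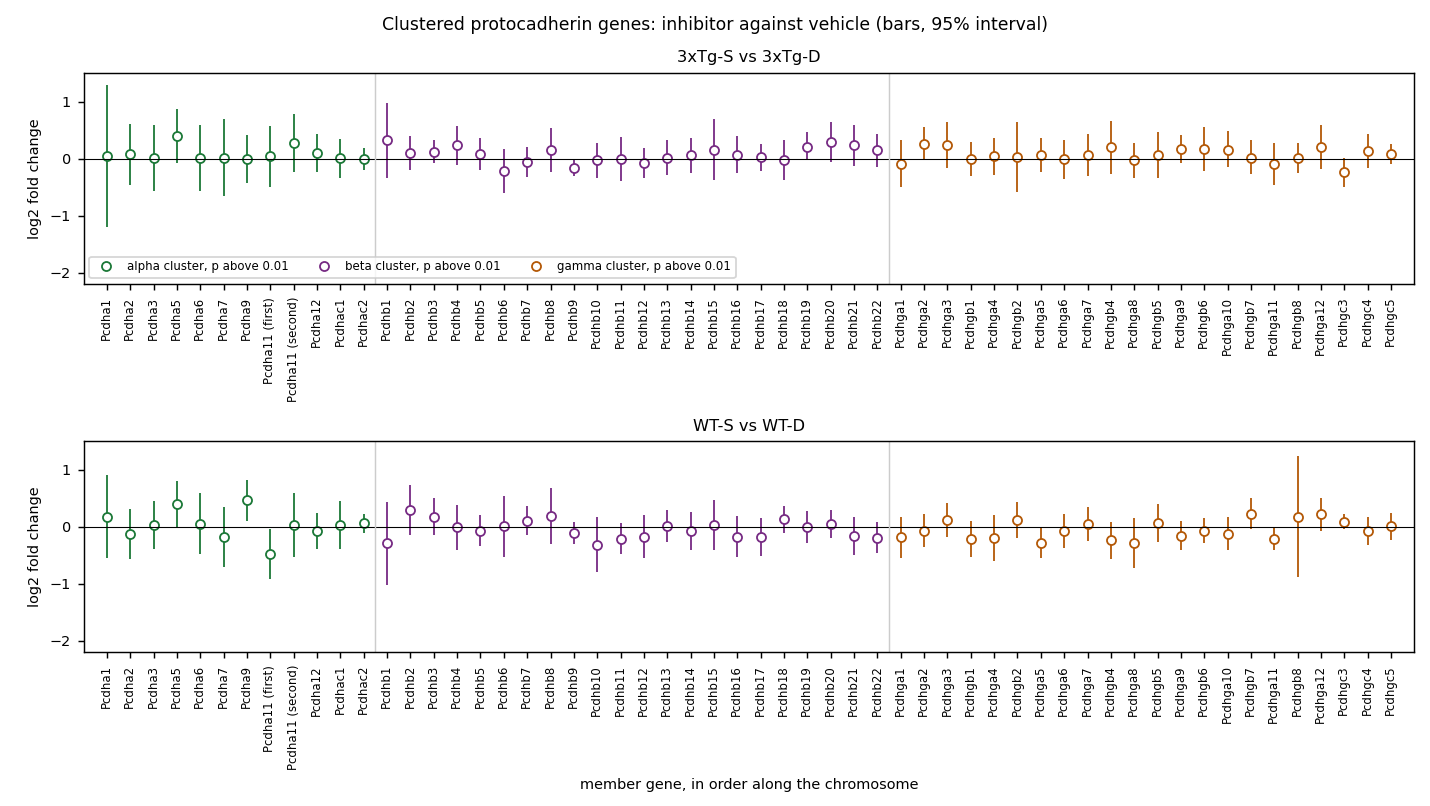
Log2 fold change of each described gene between inhibitor and vehicle, in 3xTg mice (top) and WT mice (bottom), 4 mice a group, with 95% intervals. All points are open, since no member had a p of 0.01 or less, and the widest intervals are those of Pcdha1 (top) and Pcdhgb8 (bottom).

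The third question, whether the inhibitor acts differently in the genotypes, was tested as an interaction over all 16 mice. By edgeR 0 members had a p of 0.01 or less, beside 0.595% of all genes, and 0 an adjusted p of 0.05 or less, beside 0% of all genes. At a p under 0.05 there were 2 (3.57%, beside 4.98% of all genes), Pcdhgc3 (log2 interaction −0.33 ± 0.14) and Pcdhga9 (0.33 ± 0.15), both with an adjusted p of 0.788, and DESeq2 gave 0 at 0.01. The 95% interval lay inside −1 to 1 for 51 members but inside −0.5 to 0.5 for 6, so that interactions of moderate size were not detectable with 4 mice a group. Without 3xTg-S2 the count was 2 (Pcdhgb4 and Pcdhgc3) and without 3xTg-S4 it was 1 (Pcdhga5).

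The factors that act on the protocadherin promoters were looked at as a list. Of 24 tested regulators, among them the looping factor Ctcf, the cohesin subunits Rad21, Smc1a and Smc3 and the repressors Smchd1 and Setdb1, edgeR gave 0 a p of 0.01 or less in any of the 6 comparisons, which in so short a list is near the shares of all genes given above. Their median log2 fold change was −0.04 in 3xTg-D vs WT-D and 0.03 in 3xTg-S vs WT-S. Of 21 intracellular partners and processing enzymes, Prkca, a protein kinase C, was lower in 3xTg-D mice under vehicle (log2 fold change −0.34 ± 0.11, edgeR adjusted p = 0.197). In 3xTg-S vs WT-S only Ret, a receptor tyrosine kinase that phosphorylates clustered protocadherins, passed a p of 0.01 and was higher, with 2.86 CPM in WT-S mice and 5.94 in 3xTg-S (1.04 ± 0.18, adjusted p = 0.0159). Of 11 tested protocadherins outside the clusters, 0 had that p in 3xTg-D vs WT-D, and Pcdh7 alone had it in 3xTg-S vs WT-S, where it was higher (0.25 ± 0.07, adjusted p = 0.183).

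Among 41 tested genes that are no members and start within 1000000 bases of the clusters, 4 had a p of 0.01 or less in 3xTg-D vs WT-D, 2 higher and 2 lower, beside the 4.91% of all genes. They were 3222401L13Rik (log2 fold change 0.63 ± 0.14), Hars (0.17 ± 0.05), Tmco6 (−0.45 ± 0.11) and Gm26672, described above. In 3xTg-S vs WT-S 0 of the 41 had it, although 3222401L13Rik had a log2 fold change of 0.61 ± 0.19 there, close to that under vehicle. Their median log2 fold changes were −0.02 and 0.01, beside −0.06 and 0.03 over the 56 members.

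Each mouse had 15413385 to 23590149 reads assigned to genes, of which the protocadherin clusters took 8286 to 13226. Hippocampal neurons were well represented, and 0 of 6 neuron markers had a p of 0.01 or less in 3xTg-D vs WT-D or 3xTg-S vs WT-S, with sums of 7065 to 7687 CPM in WT-D and 6226 to 7564 in 3xTg-D mice. Other markers moved with genotype or with the inhibitor. In 3xTg-S vs 3xTg-D, 2 of 6 oligodendrocyte markers (Mag and Cnp) and 3 of 4 ependymal markers (Foxj1, Ccdc153 and Rsph1) had a p of 0.01 or less. All 5 were lower in 3xTg-S mice, each with an edgeR adjusted p of 0.722. In WT-S vs WT-D 0 markers of either list had that p. Of 6 oligodendrocyte markers, 3 were higher in 3xTg-D, and their sum was 4267 to 5057 CPM in WT-D and 5531 to 6607 in 3xTg-D mice, whereas 0 of the 6 had a p of 0.01 or less in 3xTg-S vs WT-S. Of 10 markers of hippocampal fields, only the dentate granule cell gene C1ql2 had a p of 0.01 or less under vehicle. It was lower in 3xTg mice under vehicle (39.7 CPM in WT-D and 19.7 in 3xTg-D) and under the inhibitor (38.5 CPM in WT-S and 16.2 in 3xTg-S). Bok was also lower under the inhibitor (log2 fold change −0.58 ± 0.19). The other markers, Prox1 and Dsp among them, had a p above 0.01 in both comparisons. The median log2 fold change of the list was −0.13 under vehicle and −0.08 under the inhibitor. Under vehicle the list summed to 1162 to 1232 CPM for WT and 951 to 1154 for 3xTg mice, and under the inhibitor to 1087 to 1301 and 1089 to 1299. Among 5 interneuron markers, Vip alone had a p of 0.01 or less in 3xTg-D vs WT-D. It was higher in 3xTg-D (log2 fold change 0.56 ± 0.10, edgeR adjusted p = 0.0175). The median log2 fold change of the 5 was 0.03, and their sums overlapped, with 681 to 796 CPM in WT-D and 702 to 835 in 3xTg-D mice. In 3xTg-S vs WT-S 0 of the 5 had that p, and the median was −0.07. Of 4 ependymal markers 1 was lower in 3xTg-D vs WT-D and 3 in 3xTg-S vs WT-S. The 8 choroid plexus markers summed to 33.5 to 755 CPM in WT-D and 33.9 to 52.2 in 3xTg-D mice. The share of reads outside annotated genes was 7.82% to 15.1% per mouse. With the choroid plexus score as a covariate, Pcdhga11, Pcdhgb6, Pcdhga4 and Pcdhb9 kept a p of 0.01 or less in 3xTg-D vs WT-D and in 3xTg-S vs WT-S, and with the share outside genes likewise, whereas the other 4 members of 3xTg-D vs WT-D lost it under each, with log2 fold changes of 0.34 and 0.38 for Pcdhb3, −0.37 and −0.29 for Pcdhb7, −0.32 and −0.39 for Pcdhga3 and 0.38 and 0.34 for Pcdhga6 (share outside genes first). The part of oligodendrocyte, dentate granule cell, interneuron or ependymal content in the results for genotype or inhibitor was not tested.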

How the data were processed

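The authors trimmed reads with Trimmomatic 0.35, aligned them to GRCm38 with STAR 2.5.1b and Gencode M23, and deposited raw counts per gene without normalization; the strand setting and any use of molecular identifiers are not given in the sources used here. Counts were analysed in R 4.3.3 with edgeR 4.0.16: filterByExpr (minimum count 10, minimum total 15) left 16475 of 55335 genes, TMM scaled the libraries, and the quasi-likelihood test (two-sided) compared groups pairwise on their 8 mice, or all 16 for the interaction, with the study's threshold of an unadjusted p of 0.01 and Benjamini-Hochberg adjustment over all genes tested. The CPM scale uses TMM sizes over the 16 mice. Intervals at 95% come from the test's SE. The fits were tested on simulated data. DESeq2 1.42.0 was an alternative.

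Members and lists were chosen with earlier results of these data known. Named genes were the 3 highest and the lowest per cluster in CPM per kilobase, the C-type members and every member with a p of 0.01 or less. Exon lengths came from Gencode M21. The labels number the mice and do not say how they were housed or processed, so p-values measure the spread between these mice, and no batch is labelled. Libraries of 1 group differed by more than counting noise (chi-square over degrees of freedom between 3.64 and 42.8). Deviations of mice with the same number were correlated over 0.1 in every pair only in WT-S vs WT-D (0.114 to 0.340). The replicate number was not a block in the main fits. On average, though, same-number mice deviated together more than other pairs. Mean correlations were 0.176 against −0.0583 in 3xTg-S vs WT-D and 0.241 against −0.0839 in 3xTg-S vs WT-S. They were 0.213 against −0.0656 in 3xTg-S vs 3xTg-D, 0.217 against −0.0728 in WT-S vs WT-D and 0.0414 against −0.0103 in 3xTg-D vs WT-D. Counts with that block are given below. No sequence is printed here. One gene of the partner list is not reported here.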

Additional observations from a re-analysis of the deposited data

Results flagged for a closer look

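In 92 sets of 4 mice (23 genes in 4 groups), 7 had 1 mouse far from the other 3 by Dixon's test at its 95% level, where chance gives about 4.6. Pcdhgb8 in WT-D3 was at 0.651 CPM, against 6.95 to 7.44 in the other WT-D mice, and was chosen after its values were seen. Pcdha6 in WT-D3 was at 2.85 CPM, against 2.298 to 2.323. Pcdha1 in 3xTg-S2 was at 1.96 CPM, against 0.378 to 0.392 in the other 3xTg-S mice, and Pcdhb1 in 3xTg-D3 at 1.43 CPM, against 0.797 to 0.879. Pcdha12 in WT-S3 was at 6.97 CPM, against 5.49 to 5.54, and Pcdhb9 in 3xTg-S4 at 21.8 CPM, against 23.9 to 24.0. Pcdhgc3 in 3xTg-D2 was at 79.2 CPM, against 59.3 to 61.0 in the other 3xTg-D mice. The causes were not tested.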

How the results depend on the processing

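The number of members with a p of 0.01 or less stayed within 1.5 times in 92 of 109 other settings. That total includes the comparisons with 0 members in the main fit, where another 0 counts as unchanged. It therefore says little about the genotype counts, which are given singly here. In 3xTg-D vs WT-D (8 members) it was 4 at an adjusted p of 0.05, 4 with the share of reads outside genes as covariate, 4 with the choroid plexus score as covariate, and 4 (without WT-D4) to 8 with 1 mouse left out, with 5 without 3xTg-D4. In 3xTg-S vs WT-D (9) it was 3 at the adjusted threshold, 4 with the choroid plexus score, and 6 to 9 with 1 mouse left out. In 3xTg-S vs WT-S (10) it was 6 at the adjusted threshold and 8 to 10 with 1 mouse left out. In 3xTg-S vs 3xTg-D (0) it was 1 with the share outside genes (Pcdha5) and 0 to 1 with 1 mouse left out (Pcdhb20 without 3xTg-D1). It was 0 to 2 with 1 mouse left out in WT-S vs WT-D (0) and in the interaction (0), the mice named above. The causes were not tested. With the replicate block, it was 6, 9 and 12 in the 3 genotype comparisons in the order above, 1 (Pcdhgc3) in 3xTg-S vs 3xTg-D, 0 in WT-S vs WT-D and 1 (Pcdhgc3) in the interaction; the mice of 1 number best matched their own number in 3 of 8 cases in 3xTg-D vs WT-D, 7 of 8 in 3xTg-S vs WT-D, 6 of 8 in 3xTg-S vs WT-S, 4 of 8 in 3xTg-S vs 3xTg-D and 7 of 8 in WT-S vs WT-D. Of 458 repeats of a single gene's call, 364 kept it, 94 lost it and 0 changed sign. Pcdhga11, Pcdhgb6 and Pcdhga4 kept a p of 0.01 or less in all 16 refits of each genotype comparison. Depth limits Pcdha1 and Pcdhb1 most, with means of 14.1 and 16.4 counts per mouse.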
